A study of Mus musculus with 12 samples.

Results

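The adrenal cortex of mice on a high-fat diet (HFD) was compared with that of mice on a low-fat diet (LFD) by RNA sequencing. The comparison used 8 of the 12 mice of the study, chosen by the diet in their labels, with 4 mice per diet. The HFD mice are replicates 1 to 4, and the LFD mice, whose label is "Normal Diet", are replicates 2, 5, 6, and 7. The other 4 mice received the HFD with icosapent ethyl. All genes were compared, with most weight on genes outside lipid metabolism and on how far each difference moved with the RNA of the adrenal medulla. According to the methods of the study, male C57BL/6J mice started the diets at 6 weeks of age and ate them for 20 weeks, with 10% of the energy from fat in the LFD and 60% in the HFD. For its cell isolation the study separated cortex and medulla under a microscope, and how the cortex was taken for these libraries is not given in the sources used here. The labels of all 12 mice give the genotype Fads2-/-, whereas the study describes wild-type mice on these diets. *Fads2* was expressed in every mouse, at 463, 701, 716, and 783 CPM in the LFD mice and 739.8, 1288, 2085, and 2149 CPM in the HFD mice. CPM stands for the counts of a gene relative to the scaled total of its library, and values follow the replicate order 2, 5, 6, and 7 for LFD and 1 to 4 for HFD mice. Each mouse gave 1 library, so that p-values measure the spread between mice.

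The adrenal cortex makes steroid hormones from cholesterol, with aldosterone from its outer zona glomerulosa and corticosterone from the zona fasciculata. It encloses the medulla, whose chromaffin cells descend from the neural crest, make adrenaline and noradrenaline, and store them with chromogranins in secretory granules. Macrophages, endothelial cells, and fibroblasts of the capsule lie among the steroidogenic cells. A dissected cortex can carry medullary RNA, because no capsule separates it from the medulla.

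Each library held from 43819152 to 51563705 counts assigned to genes. Cortical markers matched the labelled tissue. *Hsd3b1*, a steroid dehydrogenase, was at 13593, 13280.1, 14369, and 16759.9 CPM in LFD and 14826, 18114, 17979.8, and 18409 CPM in HFD mice, and *Cyp21a1*, the steroid hydroxylase, was at 12089, 11571, 12844, and 14786 CPM in LFD and 12870.1, 15389, 18475, and 19048 CPM in HFD mice. The medulla was also present in every library. Summed over 12 chromaffin genes, expression was 19501, 12375, 22224, and 6175 CPM in the LFD mice and 9846, 3032, 8376, and 3078 CPM in the HFD mice. LFD replicate 7 was below HFD replicates 1 and 3 in this sum, and the other LFD mice were above all HFD mice.

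Of 15909 genes tested, 230 (1.45%) differed between the diets, with 155 higher (0.974%) and 75 lower (0.471%) in HFD mice (quasi-likelihood test of edgeR with Benjamini-Hochberg adjustment over all genes, threshold 0.05). Of these, 19 were in the list of genes of lipid and steroid metabolism and 211 were outside it. At an unadjusted p below 0.05 there were 3949 genes (24.8%), 1967 higher (12.4%) and 1982 lower (12.5%). In all 230 genes, the 4 HFD mice and the 4 LFD mice did not overlap, as in 2194 genes (13.8%) of all those tested. Protein-coding genes made up 227 of the 230, and the other 3 were long noncoding RNAs. The median log2 fold change was 0.69 among the genes that rose and -0.87 among those that fell, and it was beyond 1 in 43 rising and 28 falling genes. HFD replicate 1 lay closest to the LFD mice among its group in 108 of the 155 rising and 45 of the 75 falling genes. The smallest adjusted p-value was 0.0293, close to the threshold, and single mice decided how many genes passed. Omitting HFD replicate 1 raised the number to 918, and omitting LFD replicate 2 lowered it to 78. Omitting 1 of the remaining 6 mice left 0 genes by edgeR, with 2711 to 3990 at an unadjusted p below 0.05. DESeq2 called 2019 genes (12.7%), of which 1012 were higher (6.36%) and 1007 lower (6.33%), and these included all 230. With library totals in place of the scaling, 84 genes passed, 40 higher and 44 lower, and the median log2 fold change of all genes moved from -0.015 to -0.11.

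The chromaffin genes were lower in HFD mice, without a call. All 12 had a log2 fold change between -1.42 and -1.02 (median -1.28, against -0.015 over all genes tested, of which 51.8% were below 0), and in none of them were the diets apart. *Th*, the tyrosine hydroxylase that starts catecholamine synthesis, was at 832, 521, 889.7, and 266 CPM in LFD and 393, 114, 511, and 216 CPM in HFD mice (log2 fold change -1.02, SE 0.49, edgeR adjusted p = 0.234). *Dbh*, which makes noradrenaline, was at 1238, 787, 1338, and 386 CPM in LFD and 624, 208, 589.8, and 204 CPM in HFD mice. *Pnmt*, which turns noradrenaline into adrenaline, was at 592, 243, 513, and 115 CPM in LFD and 161, 54.5, 309.8, and 121 CPM in HFD mice. The same mice were high in each of these genes, with LFD replicates 2 and 6 at the top. Chromogranin A (*Chga*), a granule protein, was at 6388, 3753, 7292, and 1872 CPM in LFD and 3046, 882, 2419.6, and 913 CPM in HFD mice (log2 fold change -1.41, SE 0.52, edgeR adjusted p = 0.148). The noradrenaline transporter *Slc6a2* had the lowest fold change of the list, at 66.8, 62.7, 66.4, and 20.5 CPM in LFD and 39.9, 13.1, 17.4, and 10.6 CPM in HFD mice (log2 fold change -1.42, SE 0.48, edgeR adjusted p = 0.128). By edgeR, 0 of the 12 genes passed and 9 had an unadjusted p below 0.05, whereas DESeq2 called 6 of them lower. In bulk tissue, fewer cells of a type and less RNA per cell cannot be told apart, nor can either be told from a difference in dissection.

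**Figure D1:**
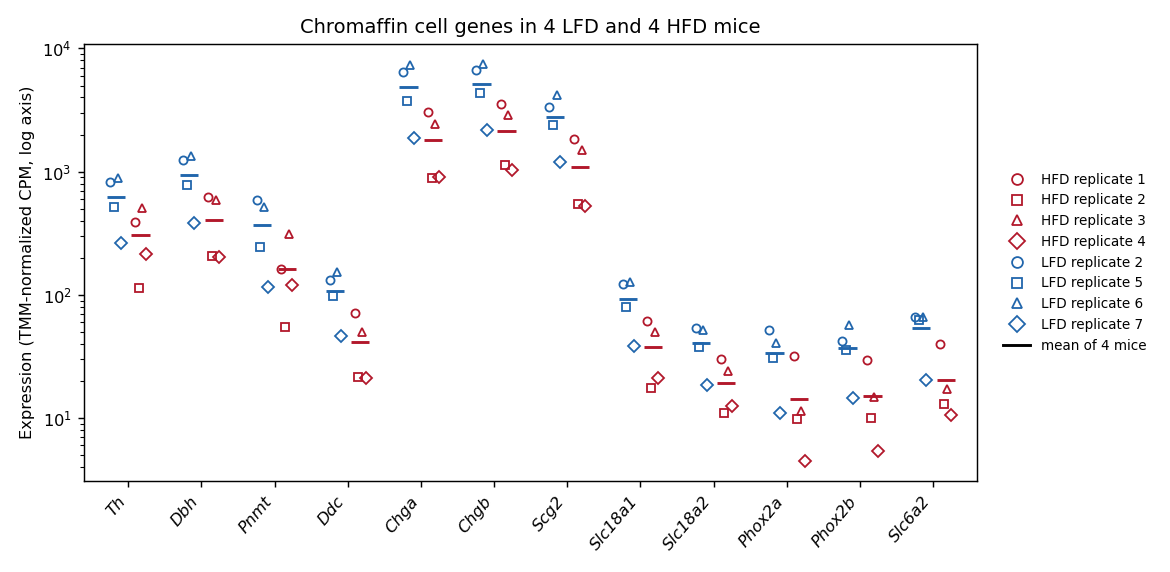
Expression of the 12 chromaffin genes in each mouse, in CPM on a log axis, with LFD mice in blue, HFD mice in red, and a bar at each mean of 4 mice. LFD replicate 7 sits among the HFD mice in every gene, and HFD replicates 2 and 4 are at or near the bottom in most genes.

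*Th* is shown with its promoter because its level stands for the medullary RNA in these libraries. The 250 bases before its start in RefSeq (GRCm38.p6, chr7:142899996-142900245, minus strand) hold 1 copy of the cAMP response element TGACGTCA, printed in capitals, which begins 45 bases before the start.
Th: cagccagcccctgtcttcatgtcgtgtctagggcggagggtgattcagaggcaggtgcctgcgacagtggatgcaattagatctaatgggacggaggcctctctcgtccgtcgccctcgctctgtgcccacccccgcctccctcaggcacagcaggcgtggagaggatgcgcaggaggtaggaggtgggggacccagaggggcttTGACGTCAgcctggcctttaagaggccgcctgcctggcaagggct
This element, searched on both strands, lies in the same window of 3 of the 8 chromaffin genes that have one in the RefSeq table, against 2.63% of the windows of 11656 tested genes.

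To see how far the diet difference moved with the medulla, the mean log2 CPM of the 12 chromaffin genes was entered in the fit beside diet. Centred on all 8 mice, this chromaffin score was 1.22, 0.62, 1.30, and -0.51 in LFD and 0.26, -1.40, -0.11, and -1.40 in HFD mice. With the score, 0 of 15897 genes passed for diet by edgeR (lowest adjusted p = 0.277), 1403 genes (8.83%) had an unadjusted p below 0.05, and DESeq2 called 156, of which 143 were among its 2019 without the score. All 230 genes kept their direction and an unadjusted p below 0.05 in the edgeR fit with the score. The 230 genes were chosen for a small p-value in the same mice, so that this does not tell diet and score apart. Their log2 fold change with the score was, at the median, 0.882 times that without it (0.602 to 1.27), with 0.846 for the rising and 0.950 for the falling genes. Their standard error was 1.33 times that without it at the median, with 5 residual degrees of freedom in place of 6.

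Genes with a lower level in HFD mice moved more with the score than those with a higher level. Among genes with an unadjusted p below 0.05 outside the 12, 37.3% of the 1973 lower genes kept less than 0.5 times their log2 fold change when the score was added, against 7.47% of the 1967 higher genes. The coefficient of the score itself passed the threshold in 649 genes (4.08%), of which 647 (4.07%) rose with it. These genes were lower in HFD mice in 645 cases, with a median log2 fold change of -1.11 without the score and -0.0084 with it. None of the 649 genes was among the 230 by edgeR, and 423 of them had an unadjusted p below 0.05 for diet, against 30 with the score. By DESeq2, 863 genes followed the score, and 274 of its genes were also called for diet. Of the 649 genes, 614 were in none of the lists of chromaffin, neuroendocrine, and glial genes. Of the 619 genes with at least 1 CPM in either diet and a log2 fold change below -1, 381 followed the score, whereas 1 did of the 206 genes above 1. The centred score itself differed between the diets, with a median of 0.92 in LFD and -0.75 in HFD mice. Genes chosen for rising with it therefore tend to be lower in HFD mice and to lose that difference with the score. These counts thus do not tell diet and score apart. The number that followed the score fell to 297 without HFD replicate 1, to 244 without LFD replicate 7, and to 120 with *Th*, *Dbh*, and *Pnmt* alone as the score.

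**Figure D2:**
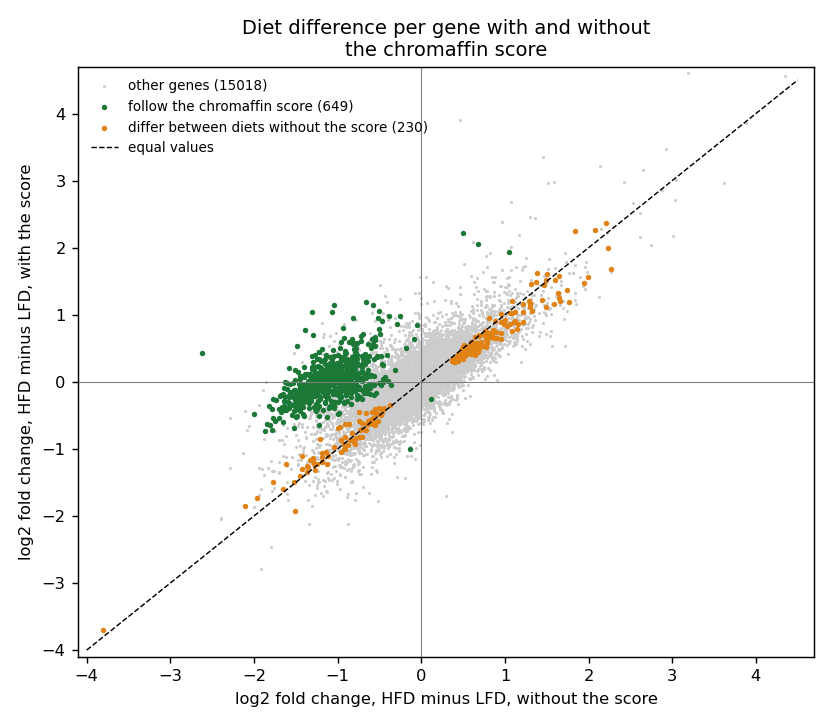
Log2 fold change of HFD minus LFD for each of 15897 genes without (horizontal axis) and with (vertical axis) the chromaffin score in the fit. The 230 genes that differed between the diets (orange) lie along the dashed line of equal values, and the 649 genes that followed the score (green) mostly lie near 0 on the vertical axis.

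Neuroendocrine genes outside the score behaved like the score in most cases. Of 46 such genes tested, 33 had a positive slope past the threshold, 43 were lower in HFD mice, and the median log2 fold change of -1.20 became 0.019 with the score. *Dlk1*, a membrane protein related to Notch ligands, was at 1067, 719, 1190.2, and 315 CPM in LFD and 554, 172, 443, and 174 CPM in HFD mice, with a slope of 1.03 (edgeR adjusted p = 0.000116), and its log2 fold change went from -1.29 to 0.04. The largest slopes were those of *Thsd7b* (1.37), *Lrrtm4* (1.34), *Mab21l1* (1.32), *St8sia1* (1.28), *Panx2* (1.26), and *Nyap2* (1.25), whose highest mouse was between 1.54 and 6.72 CPM. *Lrrtm4* encodes a synaptic adhesion protein, *St8sia1* a ganglioside synthase, and *Panx2* a pannexin channel of neural cells. In these 6 genes, which were chosen by their slope, the log2 fold change between diets, from -1.51 to -0.58 without the score, was above 0 with it. The chemokine gene *Cxcl14* also followed the score (slope 0.65, edgeR adjusted p = 0.00157), at 106, 61.3, 94.5, and 46.4 CPM in LFD and 47.1, 20.5, 39.6, and 22.9 CPM in HFD mice. *Btnl9*, a butyrophilin-like gene, was 1 of the 2 genes that fell with the score (slope -0.30, edgeR adjusted p = 0.0419).

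Among glial genes of Schwann and sustentacular cells, 15 of 16 were lower in HFD mice (median -1.06, -0.29 with the score, and -0.64 without LFD replicate 2), 0 passed by edgeR with 9 at an unadjusted p below 0.05, and DESeq2 called 5. The adhesion gene *L1cam* followed the score (slope 1.01, edgeR adjusted p = 0.00755), and the myelin and raft protein gene *Mal* did not (log2 fold change -0.60 without and -0.77 with the score).

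Of all lists, those of macrophage and phagocyte genes held the most genes that passed the edgeR threshold with a lower level. Of 26 macrophage genes tested, 9 were lower and 0 higher in HFD mice, against 0.471% lower among all genes tested, 12 did not overlap between the diets (all lower, against 6.05% of all genes), and the median log2 fold change was -0.49. Of 30 genes typical of foam cells and lysosome-loaded macrophages, 8 were lower and 1 higher (*Plin2*, the lipid droplet coat), with a median of -0.81. *Cd5l*, a scavenger receptor protein secreted by macrophages, was at 18.0, 25.1, 26.7, and 51.1 CPM in LFD and 3.92, 0.887, 2.99, and 0.891 CPM in HFD mice, the largest fall outside lipid metabolism (log2 fold change -3.80, SE 0.57, edgeR adjusted p = 0.0376). Each HFD value rested on 40 to 184 counts, and the lowest LFD mouse was more than 4 times above the highest HFD mouse. *Mmp12*, the macrophage elastase, was at 67.7, 105, 83.7, and 99.9 CPM in LFD and 35.4, 18.3, 25.2, and 12.3 CPM in HFD mice (log2 fold change -1.96, SE 0.30, edgeR adjusted p = 0.0376). *Clec4d*, a C-type lectin receptor of myeloid cells, was at 5.89, 6.92, 4.69, and 5.78 CPM in LFD and 2.58, 0.906, 1.83, and 1.51 CPM in HFD mice (log2 fold change -1.77, SE 0.31, edgeR adjusted p = 0.0398). In both, the 4 HFD mice were below every LFD mouse. *Lgals3*, the galectin abundant in phagocytes, was at 86.0, 105, 90.1, and 93.9 CPM in LFD and 46.1, 35.6, 40.9, and 26.2 CPM in HFD mice (log2 fold change -1.33, SE 0.16, edgeR adjusted p = 0.0293).

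General markers of macrophages had smaller falls or did not pass. *Cd68*, a lysosomal protein of macrophages, was at 31.5, 46.3, 34.9, and 44.2 CPM in LFD and 19.4, 16.2, 17.8, and 12.6 CPM in HFD mice (log2 fold change -1.25, edgeR adjusted p = 0.0376). *Ctss*, the lysosomal cathepsin S, was at 252, 311, 227, and 313 CPM in LFD and 144, 135, 162, and 137 CPM in HFD mice (log2 fold change -0.93, edgeR adjusted p = 0.0340). *Tyrobp*, the signalling adaptor of myeloid receptors, was at 33.7, 36.6, 31.4, and 38.5 CPM in LFD and 18.7, 20.1, 20.3, and 17.4 CPM in HFD mice (log2 fold change -0.87, edgeR adjusted p = 0.0293). In these 3 genes, every HFD mouse was below every LFD mouse. *Csf1r*, the receptor on which macrophages depend, was at 42.4, 55.2, 41.7, and 54.3 CPM in LFD and 42.1, 49.9, 45.7, and 41.4 CPM in HFD mice (log2 fold change -0.11, edgeR adjusted p = 0.605), and *Mrc1*, the mannose receptor, at 21.1, 34.1, 19.9, and 33.1 CPM in LFD and 29.1, 29.2, 39.5, and 30.4 CPM in HFD mice (log2 fold change 0.24, edgeR adjusted p = 0.488), with the diets overlapping in both. *Csf1r* and *Mrc1* were picked after their values were seen, because they are defining markers that did not pass. *Adgre1*, the surface marker F4/80, picked in the same way, was at 21.3, 36.3, 24.9, and 37.5 CPM in LFD and 21.7, 23.5, 21.4, and 19.4 CPM in HFD mice (log2 fold change -0.48, edgeR adjusted p = 0.163). Summed over the list, macrophage expression was from 1292 to 1798 CPM in LFD and from 890 to 1096 CPM in HFD mice, without overlap.

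Complement genes, many of them made by macrophages, showed 3 falls and no rise past the edgeR threshold among 17 tested (median -0.63). Among all genes tested, 0.471% were lower by edgeR, and DESeq2 called 1 complement gene higher and 9 lower. *C1qa* was at 129.9, 146, 132, and 167 CPM in LFD and 80.2, 79.7, 100.2, and 84.4 CPM in HFD mice (log2 fold change -0.74, edgeR adjusted p = 0.0376), and *C1qc* had a log2 fold change of -0.80 (edgeR adjusted p = 0.0376). Both encode chains of the starter protein of the classical pathway. Properdin (*Cfp*), which stabilizes the alternative pathway, was at 5.91, 5.89, 5.56, and 7.51 CPM in LFD and 2.64, 3.16, 3.31, and 2.23 CPM in HFD mice (log2 fold change -1.13, edgeR adjusted p = 0.0398). Of 48 lysosomal genes, DESeq2 called 3 higher and 8 lower, and their median was 0.027. By edgeR 1 passed higher and 2 lower, against 0.974% and 0.471% of all genes tested. *Npc1*, the cholesterol exporter of lysosomes, was the rise, at 88.3, 112, 97.0, and 108 CPM in LFD and 133, 163, 191, and 173 CPM in HFD mice (log2 fold change 0.70, edgeR adjusted p = 0.0408).

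**Figure D3:**
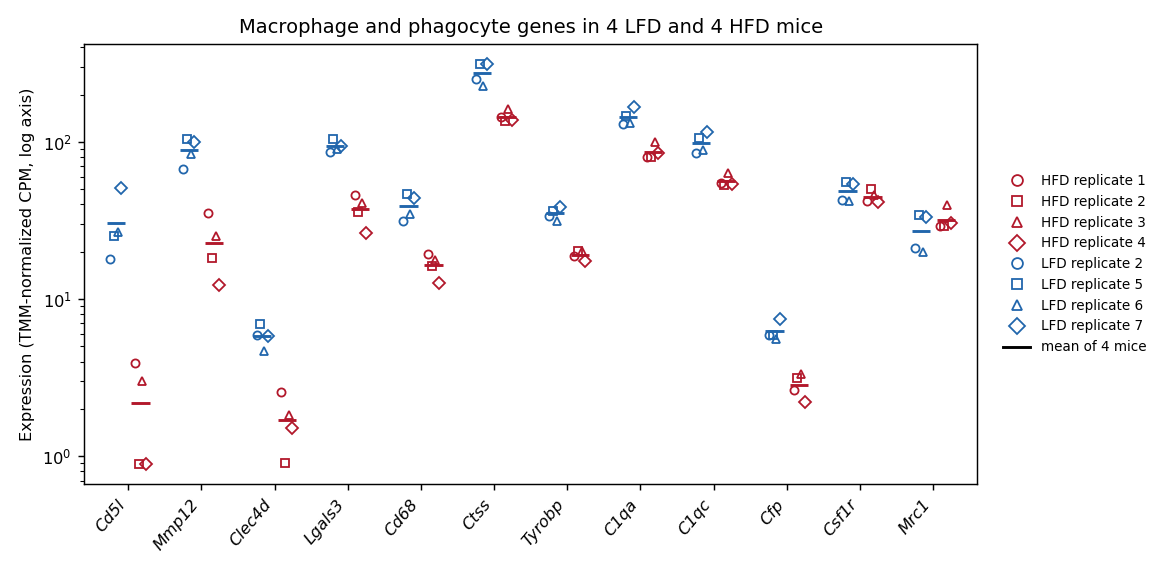
Expression of 12 macrophage and phagocyte genes in each mouse, in CPM on a log axis, with LFD mice in blue, HFD mice in red, and a bar at each mean of 4 mice. The first 10 genes separate the diets in all mice, and *Csf1r* and *Mrc1* on the right do not.

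The fall of the phagocyte genes changed little when the chromaffin score was added. With the chromaffin score, the median of the macrophage list was -0.63 and that of the foam cell list -0.75, and 15 of the 26 and 16 of the 30 genes then had an unadjusted p below 0.05 for a lower level. *Cd5l* stayed at -3.70 (edgeR unadjusted p = 0.000372), *Cd68* at -1.23 (0.000459 by the same test), and *Tyrobp* at -0.94 (9.96e-05 by the same test). Past the threshold, none of the macrophage genes and 1 gene of the foam cell list followed the score, the tetraspanin gene *Cd9* (slope 0.39, edgeR adjusted p = 0.0360), which was named after its value was seen. In fits that left out 1 mouse, the median of the macrophage list was between -0.57 and -0.41, while the number of its genes past the threshold was 0 without HFD replicate 2, 3, or 4 or LFD replicate 5, 6, or 7.

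Promoters of *Cd5l*, *Mmp12*, and *Cd68* are shown because these genes fell together. Each 250-base window before the outermost RefSeq start (GRCm38.p6) holds 1 copy of GAGGAA, the core bound by the myeloid factor PU.1, or its complement TTCCTC, in capitals.
Cd5l (chr3:87357631-87357880, plus strand): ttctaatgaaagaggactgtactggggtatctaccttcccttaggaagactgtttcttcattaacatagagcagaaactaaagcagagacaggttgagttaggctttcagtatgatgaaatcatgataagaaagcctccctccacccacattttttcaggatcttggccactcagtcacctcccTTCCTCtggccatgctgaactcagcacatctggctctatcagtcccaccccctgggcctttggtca
Mmp12 (chr9:7344147-7344396, plus strand): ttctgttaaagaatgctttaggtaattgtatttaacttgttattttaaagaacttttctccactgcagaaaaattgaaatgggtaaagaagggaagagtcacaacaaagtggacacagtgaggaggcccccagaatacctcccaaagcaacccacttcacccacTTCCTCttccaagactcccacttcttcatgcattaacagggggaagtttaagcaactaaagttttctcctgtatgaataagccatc
Cd68 (chr11:69666171-69666420, minus strand): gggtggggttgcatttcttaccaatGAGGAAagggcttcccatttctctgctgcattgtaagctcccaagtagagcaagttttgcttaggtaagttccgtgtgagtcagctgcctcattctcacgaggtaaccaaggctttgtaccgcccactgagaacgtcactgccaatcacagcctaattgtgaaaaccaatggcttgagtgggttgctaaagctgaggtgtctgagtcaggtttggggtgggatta
These letters were found on either strand in 9 of 16 windows of macrophage genes and in 11 of 24 windows of the foam cell list, against 22.5% of all windows. The search covered 5 motifs on both strands in 6 gene lists, no printed matches overlap each other, and a match in a window does not show binding.

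Other immune lists held single calls by edgeR. *Il7r*, the interleukin receptor of lymphocytes and lymphoid precursors, was at 3.43, 4.93, 4.17, and 5.59 CPM in LFD and 2.34, 1.31, 2.12, and 1.31 CPM in HFD mice (log2 fold change -1.35, edgeR adjusted p = 0.0480). It was the only edgeR call among 17 lymphocyte genes, of which DESeq2 called 2 lower. *Cxcl16*, a chemokine that also binds oxidized lipoproteins, fell by 0.71 on the log2 scale (edgeR adjusted p = 0.0471), and *Psmb8*, an immunoproteasome subunit, by 0.64 (edgeR adjusted p = 0.0376). They were the only edgeR calls among 27 cytokine and 32 interferon genes. DESeq2 called 3 cytokine genes higher and 7 lower, and 5 interferon genes lower. Of all genes tested, 0.471% were lower by edgeR, and 6.36% were higher and 6.33% lower by DESeq2. Among 15 genes of antigen presentation by MHC class II, 12 were lower and 0 passed by edgeR or DESeq2, with 8 at an unadjusted p below 0.05. *H2-Aa* was at 211, 257, 267, and 292 CPM in LFD and 169, 225, 205, and 194 CPM in HFD mice (log2 fold change -0.37, edgeR adjusted p = 0.118). Summed expression of the lymphocyte genes was from 77.8 to 95.8 CPM in LFD and from 49.4 to 79.7 CPM in HFD mice.

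The remaining large falls outside lipid metabolism were in genes of differing roles. *Scin*, the actin-severing protein scinderin of secretory cells, was at 10.4, 8.18, 6.05, and 8.32 CPM in LFD and 3.15, 2.99, 2.26, and 2.03 CPM in HFD mice (log2 fold change -1.66, SE 0.23, edgeR adjusted p = 0.0376). *Eva1c*, a transmembrane protein, was at 13.5, 14.3, 17.6, and 10.5 CPM in LFD and 5.24, 3.24, 5.14, and 4.63 CPM in HFD mice (log2 fold change -1.62, SE 0.21, edgeR adjusted p = 0.0340). *Igf1*, the insulin-like growth factor, was at 15.4, 18.6, 13.9, and 18.8 CPM in LFD and 9.48, 6.65, 5.84, and 3.79 CPM in HFD mice (log2 fold change -1.37, SE 0.26, edgeR adjusted p = 0.0456). Each of them was lower in every HFD mouse than in any LFD mouse. *Aqp1*, a water channel, was at 164, 104, 99.7, and 124 CPM in LFD and 66.9, 55.8, 36.5, and 41.1 CPM in HFD mice (log2 fold change -1.30, edgeR adjusted p = 0.0398). *Nt5e*, the surface enzyme that makes adenosine from AMP, was at 45.6, 32.4, 28.4, and 36.7 CPM in LFD and 22.3, 13.5, 9.47, and 13.0 CPM in HFD mice (log2 fold change -1.30, edgeR adjusted p = 0.0497). *Prom1* (prominin, -1.51), *Tspan8* (a tetraspanin, -1.42), and 2 genes with a whey acidic protein domain, *Wfdc6a* (-1.46) and *Wfdc17* (-1.27), were low in both diets, at up to 10.3 CPM.

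Among the rising genes, *Adh1* came first. *Adh1* (chromosome 3 of GRCm38 from 138260991 to 138290698, plus strand), an alcohol dehydrogenase that also oxidizes retinol, was at 238, 311, 338, and 352 CPM in LFD and 404, 2179, 1913, and 1481 CPM in HFD mice (log2 fold change 2.27, SE 0.44, edgeR adjusted p = 0.0470). HFD replicate 1 was only just above the highest LFD mouse. *Adh7*, a related retinol-oxidizing enzyme, was at 4.56, 8.87, 8.08, and 11.5 CPM in LFD and 14.0, 28.9, 33.7, and 35.5 CPM in HFD mice (log2 fold change 1.77, SE 0.34, edgeR adjusted p = 0.0476). With the chromaffin score, the log2 fold change was 1.68 for *Adh1* and 1.19 for *Adh7* (edgeR unadjusted p = 0.0239 and 0.00980). Both were the only edgeR calls among 25 genes of alcohol, aldehyde, and retinoid metabolism, against 0.974% higher among all genes tested. The median of this list was 0.048, and DESeq2 called 3 of its genes higher and 4 lower. The retinal dehydrogenase gene *Aldh1a1*, which acts at the next step, was at 1039, 1521, 1486, and 1799.9 CPM in LFD and 1327, 689.8, 739, and 943 CPM in HFD mice, with a log2 fold change of -0.66 (edgeR adjusted p = 0.137).

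Of 38 genes of adrenal hormone receptors and cAMP signalling, 2 rose past the edgeR threshold, against 0.974% of all genes tested. DESeq2 called 3 of the 38 higher and 3 lower, and 25 had a log2 fold change below 0 (median -0.14). *Adra1d*, an adrenoceptor for adrenaline and noradrenaline, was at 26.0, 18.5, 17.9, and 8.76 CPM in LFD and 61.5, 63.1, 57.3, and 73.7 CPM in HFD mice (log2 fold change 1.84, SE 0.28, edgeR adjusted p = 0.0376). The lowest HFD mouse was more than 2 times above the highest LFD mouse. Unlike most rises, that of *Adra1d* was larger with the chromaffin score, at 2.24 (edgeR unadjusted p = 0.00032). *Pde8b*, a phosphodiesterase that degrades cAMP in cortical cells, was at 45.1, 61.5, 49.8, and 58.8 CPM in LFD and 77.1, 97.8, 83.4, and 83.2 CPM in HFD mice (log2 fold change 0.67, SE 0.12, edgeR adjusted p = 0.0418). Outside this list, *Ptprt*, a receptor tyrosine phosphatase, rose by 1.75, and *Cd44*, the hyaluronan receptor, by 1.45 on the log2 scale. *Cd44* was at 23.9, 29.3, 22.8, and 23.2 CPM in LFD and 35.1, 58.1, 87.2, and 89.8 CPM in HFD mice.

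*Xdh*, the xanthine dehydrogenase of purine breakdown, was at 49.1, 84.8, 61.0, and 77.6 CPM in LFD and 96.9, 233, 279, and 255 CPM in HFD mice (log2 fold change 1.66, SE 0.31, edgeR adjusted p = 0.0450), and HFD replicate 1 was again the lowest of its group. *Bcl6*, a transcriptional repressor, was at 31.0, 16.5, 28.6, and 22.6 CPM in LFD and 50.2, 54.0, 88.2, and 86.8 CPM in HFD mice (log2 fold change 1.50, SE 0.25, edgeR adjusted p = 0.0398). *Apol6*, a member of the apolipoprotein L family, was at 0.828, 1.54, 1.16, and 1.47 CPM in LFD and 3.11, 5.59, 5.50, and 5.68 CPM in HFD mice (log2 fold change 1.99, SE 0.28, edgeR adjusted p = 0.0376). None of the 3 genes overlapped between the diets. *Cst8* (a cystatin, 2.23), *Micall2* (an actin and cell junction regulator, 1.65), *Timp4* (an inhibitor of matrix proteases, 1.60), *Txndc2* (a thioredoxin-like gene, 1.59), *Slc25a34* (a mitochondrial carrier, 1.49), and *Iqgap3* (a scaffold protein of dividing cells, 1.49) completed the 15 largest rises, and all but *Micall2* were below 8 CPM in every mouse. Among the 230 genes, those whose log2 fold change moved most when the score was added were *Adh1*, *Apol6*, *Adh7*, *Xdh*, *Txndc2*, and the lipid synthesis gene *Gpam* (1.94 to 1.48), all of them rises that became smaller.

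**Figure D4:**
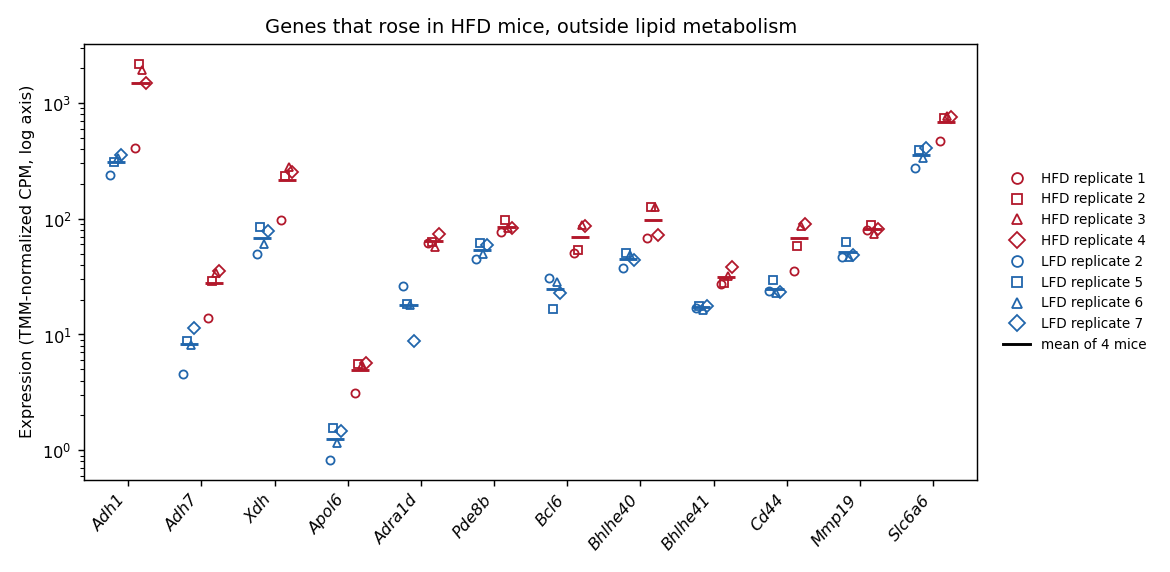
Expression of 12 genes that rose in HFD mice, in CPM on a log axis, with LFD mice in blue, HFD mice in red, and a bar at each mean of 4 mice. The diets do not overlap in any of these genes, and HFD replicate 1 (red circle) is the lowest HFD mouse in 10 of them.

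Of 19 clock genes, 2 rose and none fell past the edgeR threshold, against 0.974% higher and 0.471% lower among all genes tested. DESeq2 called 3 of the list, all higher. *Bhlhe41*, a transcriptional repressor of the clock, was at 16.9, 17.8, 16.4, and 17.5 CPM in LFD and 27.3, 28.1, 31.7, and 38.4 CPM in HFD mice (log2 fold change 0.87, SE 0.13, edgeR adjusted p = 0.0376). Its relative *Bhlhe40* was at 37.7, 50.7, 48.3, and 43.8 CPM in LFD and 67.6, 125, 126, and 72.7 CPM in HFD mice (log2 fold change 1.12, SE 0.22, edgeR adjusted p = 0.0497). The diets were apart in both genes, with *Bhlhe40* highest in HFD replicates 2 and 3. *Nr1d1*, the clock repressor REV-ERBα, was at 111, 103, 120.5, and 132 CPM in LFD and 165, 102, 229.9, and 248 CPM in HFD mice with overlap (edgeR adjusted p = 0.146). The median of the list was -0.033. The E-box CACGTG, which clock factors bind, was found in 5 of 16 windows of clock genes, against 8.14% of all windows. Among 25 immediate-early genes, 0 passed by edgeR with 9 at an unadjusted p below 0.05, all higher, and DESeq2 called 5. Their median of 0.42 became -0.074 with the chromaffin score and 1.14 with the adipocyte score, and omitting HFD replicate 2 or LFD replicate 2 gave 0.17 or 0.19. Omitting HFD replicate 4 or LFD replicate 7 gave 0.67 or 0.86. *Nr4a1*, an orphan nuclear receptor of this list, ranged from 81.6 to 1673 CPM among the LFD and from 132 to 2222 CPM among the HFD mice.

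Cell cycle genes were mostly higher in HFD mice. Of 35 tested, 30 had a log2 fold change above 0, as had 48.2% of all genes, and 12 did not overlap between the diets, all of them higher, against 7.74% of all genes. The median was 0.84, and 1 gene passed. This was *Cenpe*, a kinesin of the kinetochore, at 0.693, 0.407, 0.290, and 0.443 CPM in LFD and 1.41, 1.66, 1.27, and 1.47 CPM in HFD mice (log2 fold change 1.65, SE 0.28, edgeR adjusted p = 0.0398), with 13 to 86 counts per library. DESeq2 called 15 genes of the list higher and 1 lower. *Mki67*, the proliferation marker Ki-67, was at 1.66, 1.03, 1.16, and 1.28 CPM in LFD and 2.75, 6.56, 2.43, and 3.21 CPM in HFD mice (log2 fold change 1.54, edgeR adjusted p = 0.0587), and the mitotic cyclin *Ccnb1* at 1.10, 0.471, 0.602, and 0.676 CPM in LFD and 1.43, 4.11, 1.95, and 2.76 CPM in HFD mice (log2 fold change 1.84, edgeR adjusted p = 0.0553). HFD replicate 2 was the highest in both, and neither overlapped between the diets. Both were picked after their values were seen. The G1 cyclin *Ccnd1* was at 301, 326, 322, and 325 CPM in LFD and 372, 497, 427, and 375 CPM in HFD mice, without overlap (log2 fold change 0.39, edgeR adjusted p = 0.0807). Its relative *Ccnd2* was at 507, 547, 509, and 548 CPM in LFD and 626, 657, 480, and 475 CPM in HFD mice. The diets overlapped in *Ccnd2* (log2 fold change 0.084, edgeR adjusted p = 0.712). Summed over the list, expression was from 1188 to 1261 CPM in LFD and from 1237 to 1609 CPM in HFD mice, with overlap. With the chromaffin score the median of the list was 0.55, and without HFD replicate 2 it was 0.62.

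The promoters of *Cenpe* and *Mki67* are shown for this group. In their 250-base windows (RefSeq, GRCm38.p6), capitals mark CCAAT or its complement ATTGG, the element bound by NF-Y, and TTTGAA or its complement, the cell cycle homology element.
Cenpe (chr3:135212313-135212562, plus strand): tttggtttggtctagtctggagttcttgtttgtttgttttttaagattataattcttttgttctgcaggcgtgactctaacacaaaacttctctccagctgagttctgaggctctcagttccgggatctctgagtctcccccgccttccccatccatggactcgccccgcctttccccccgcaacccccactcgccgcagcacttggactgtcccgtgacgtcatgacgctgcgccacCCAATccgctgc
Mki67 (chr7:135716380-135716629, minus strand): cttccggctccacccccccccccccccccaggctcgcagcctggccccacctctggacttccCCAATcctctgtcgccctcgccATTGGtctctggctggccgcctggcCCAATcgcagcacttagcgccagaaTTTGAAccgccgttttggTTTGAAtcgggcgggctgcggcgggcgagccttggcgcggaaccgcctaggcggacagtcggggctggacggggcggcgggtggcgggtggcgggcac
CCAAT was found on either strand in 22 of 26 windows of cell cycle genes, against 35.9% of all windows, and TTTGAA in 7 of 26, against 10.5%. In the other lists searched, CCAAT was in 25.0% (chromaffin genes) to 68.8% (clock genes) of windows. TTTGAA was in 0% (clock genes) to 31.2% (macrophage genes), so that its share was not highest in the cell cycle list.

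Steroidogenic identity genes were mostly higher, without a call. Of 17 genes, 15 had a log2 fold change above 0, the median was 0.46, and 0 passed by edgeR with 8 at an unadjusted p below 0.05, while DESeq2 called 4. *Star*, which carries cholesterol into mitochondria, was at 7005, 12445, 12944, and 20132 CPM in LFD and 12925, 20272, 36161, and 30180.3 CPM in HFD mice (log2 fold change 0.92, edgeR adjusted p = 0.173), and the diets overlapped. With the chromaffin score, the median of the list was 0.22. Of 16 zona glomerulosa genes, 8 were higher and 8 lower (median -0.10). Among 19 capsule and fibroblast genes, 16 were lower (median -0.52, -0.51 with the score, and -0.23 without LFD replicate 2), 0 passed by edgeR with 10 at an unadjusted p below 0.05, and DESeq2 called 7 lower and 1 higher. *Dcn*, the proteoglycan decorin, was at 289, 178, 178, and 249.8 CPM in LFD and 144, 117, 115, and 84.2 CPM in HFD mice, without overlap (log2 fold change -0.96, edgeR adjusted p = 0.0553). All 9 blood genes had a log2 fold change below 0 (median -0.51, and -0.78 without LFD replicate 5), and the hemoglobin gene *Hbb-bs* was at 831, 249.6, 842, and 607 CPM in LFD and 441, 418, 472, and 351 CPM in HFD mice. Of 24 endothelial genes, 17 were lower, with a median of -0.03. Of 16 adipocyte genes, 10 were above 0 (median 0.37, and 0.71 with 13 above 0 when the chromaffin score was added), DESeq2 called 5 higher and 1 lower, and 2 rose past the edgeR threshold, *Lipe* (0.88) and *Plin4* (1.29), both of them lipolysis or lipid droplet genes that steroidogenic cells also use. The summed level of the adipocyte list was from 427 to 564 CPM in LFD and from 577 to 705 CPM in HFD mice, without overlap. Its defining marker *Adipoq*, the adipokine adiponectin, was at 11.4, 3.43, 5.89, and 1.14 CPM in LFD and 10.9, 5.53, 9.86, and 4.52 CPM in HFD mice, with overlap. *Lep*, the adipocyte hormone leptin, was at 3.33, 0.407, 0.714, and 0.420 CPM in LFD and 16.3, 9.54, 14.4, and 4.81 CPM in HFD mice, without overlap (log2 fold change 3.19, edgeR adjusted p = 0.0603). *Adipoq* followed the chromaffin score (slope 1.12, edgeR adjusted p = 0.0419). With the score its log2 fold change went from 0.49 to 2.22, and that of *Lep* from 3.19 to 4.61 (edgeR unadjusted p = 0.0020 and 0.00029). *Adipoq* and *Lep* were picked after their values were seen. What part adipocyte RNA had in the other results was not tested beyond a fit with an adipocyte score, which called 1884 genes outside this list.

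Genes of protection and protein folding moved both ways. Among 50 genes of glutathione, NADPH, and xenobiotic metabolism, 3 passed by edgeR, all lower, whereas DESeq2 called 7 higher and 5 lower, and 11 were higher and 8 lower at an unadjusted p below 0.05. Of all genes tested, edgeR called 0.471% lower, and DESeq2 called 6.36% higher and 6.33% lower. At an unadjusted p below 0.05 by edgeR, 12.4% of all genes were higher and 12.5% lower. *Gstt1*, a glutathione transferase, was at 58.2, 48.1, 61.7, and 63.4 CPM in LFD and 39.4, 35.5, 36.6, and 37.8 CPM in HFD mice (log2 fold change -0.63, edgeR adjusted p = 0.0376). *Prdx4*, a peroxiredoxin of the endoplasmic reticulum, fell by 0.67, and the secreted glutathione peroxidase *Gpx3* by 0.51 on the log2 scale (edgeR adjusted p = 0.0437 for both). The median of this list was 0.088, near that of all genes tested. *Hspb1*, a small heat shock protein, was at 276, 358, 325, and 353 CPM in LFD and 221, 226, 243, and 224 CPM in HFD mice (log2 fold change -0.52, edgeR adjusted p = 0.0437). It was the only edgeR call among 26 heat shock genes, of which DESeq2 called 1 higher and 2 lower. *Sdf2l1*, a factor of the endoplasmic reticulum, was at 55.9, 45.0, 48.5, and 35.7 CPM in LFD and 29.8, 27.4, 29.2, and 24.4 CPM in HFD mice (log2 fold change -0.74, edgeR adjusted p = 0.0450), the only edgeR call among 30 genes of the unfolded protein response, of which DESeq2 called 3 higher and 1 lower. Their main chaperone *Hspa5* had a log2 fold change of 0.023 (edgeR adjusted p = 0.936). Against the 12.7% that DESeq2 called of all genes tested, its counts in the heat shock and unfolded protein response lists were not high.

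Transporters and matrix genes moved both ways. *Slc6a6*, the taurine transporter, was at 276, 393, 335, and 406 CPM in LFD and 471, 737, 766, and 749 CPM in HFD mice (log2 fold change 0.95, edgeR adjusted p = 0.0450). *Slc43a1*, a transporter of large neutral amino acids, was at 4.85, 3.88, 3.68, and 4.27 CPM in LFD and 1.94, 1.81, 1.95, and 1.63 CPM in HFD mice (log2 fold change -1.19, edgeR adjusted p = 0.0376). *Mthfd2*, a mitochondrial enzyme of folate metabolism, was at 35.4, 37.7, 38.6, and 33.6 CPM in LFD and 22.6, 16.0, 24.9, and 23.4 CPM in HFD mice (log2 fold change -0.74, edgeR adjusted p = 0.0450). These were the 3 edgeR calls among 38 genes of amino acid transport and folate-linked metabolism, and in each the diets were apart. DESeq2 called 2 genes of this list higher and 7 lower. Shares over all genes tested were 0.974% higher and 0.471% lower by edgeR, and 6.36% higher and 6.33% lower by DESeq2. Of 47 matrix genes, *Mmp12* fell and *Mmp19*, another matrix metalloproteinase, rose from 47.1, 63.2, 46.3, and 48.8 CPM in LFD to 80.1, 88.6, 74.3, and 81.1 CPM in HFD mice (log2 fold change 0.66, edgeR adjusted p = 0.0400).

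Energy and translation genes gave no call by edgeR. Of 59 respiratory chain genes, 25 were higher and 34 lower (median -0.038), with 4 at an unadjusted p below 0.05 and 0 called by DESeq2. Of 28 genes of the TCA cycle, 23 were higher (median 0.18), and DESeq2 called 3 higher. At an unadjusted p below 0.05 by edgeR, 7 were higher and 1 lower, against 12.4% and 12.5% of all genes. The oxoglutarate dehydrogenase gene of the cycle, *Ogdh*, was at 422, 574, 526, and 572 CPM in LFD and 612, 684, 770.3, and 727 CPM in HFD mice, without overlap (log2 fold change 0.42, edgeR adjusted p = 0.0933). Of the 56 cytosolic ribosomal protein genes, all 56 were lower in HFD mice, with log2 fold changes from -0.49 to -0.04 and a median of -0.26. By edgeR, 36 of them had an unadjusted p below 0.05, against 12.5% lower among all genes. With the chromaffin score, the median was -0.22 and 0 of the 56 had an unadjusted p below 0.05. Of the 56, 7 did not overlap between the diets, all of them lower, against 6.05% of all genes, and DESeq2 called 2 lower. *Rps14* was at 2666, 2503, 3124, and 2895 CPM in LFD and 2073, 2012, 2283, and 2593 CPM in HFD mice (log2 fold change -0.32, edgeR adjusted p = 0.141). Of 47 mitochondrial ribosomal protein genes, 32 were higher (median 0.068).

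**Figure D5:**
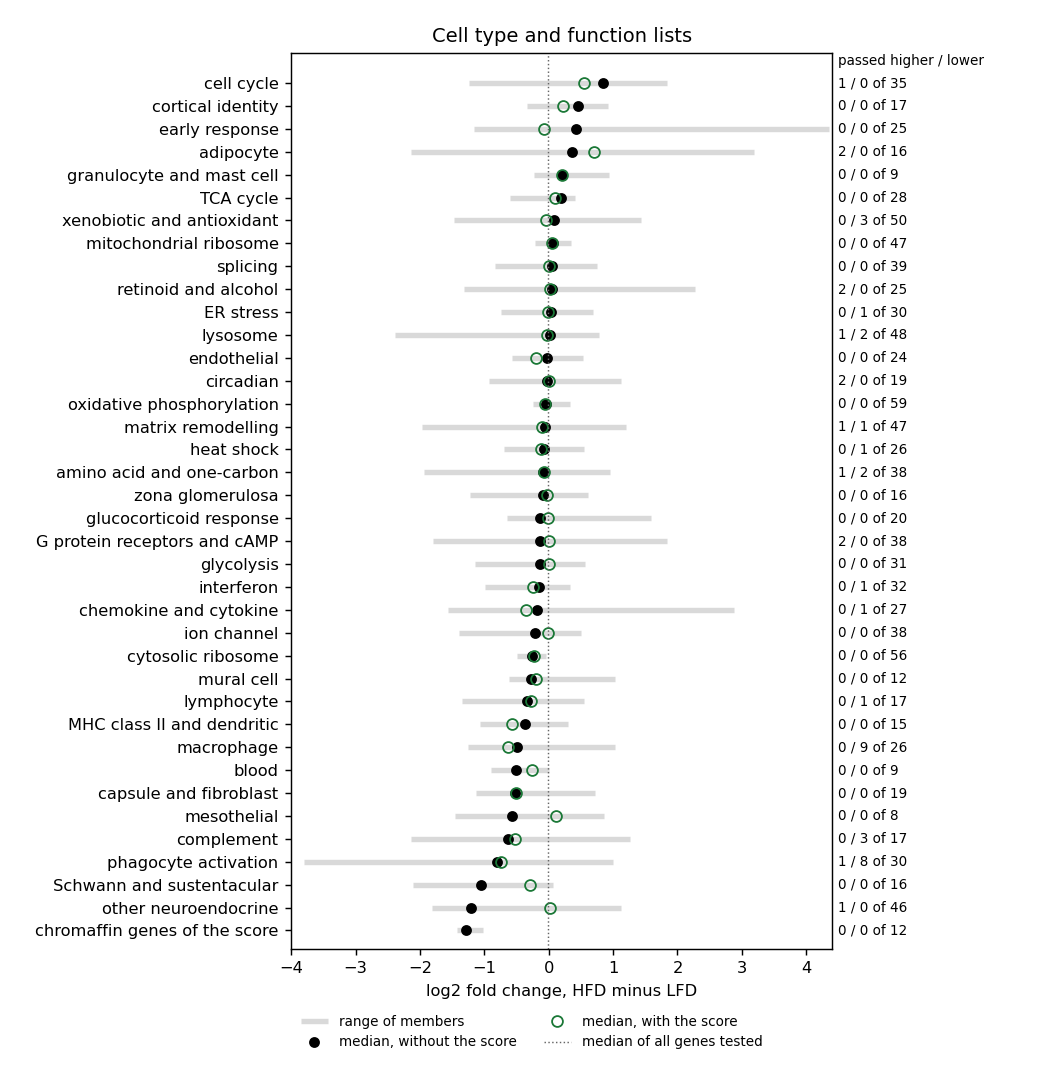
Median log2 fold change of HFD minus LFD for each gene list, without (black) and with (green) the chromaffin score, with the range of its members in grey. The numbers give the members that passed the threshold higher and lower of those tested, and the lists at the bottom are the chromaffin, neuroendocrine, and glial genes, whose medians without the score are below -1.

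Gene length moved with the diet difference. Among 14182 protein-coding genes, the fifth with the shortest exon length (204 to 2525 bases) held 10 higher and 41 lower calls and had a median log2 fold change of -0.11. The fifth with the longest (7644 to 123179 bases) held 57 higher and 2 lower calls and had a median of 0.09. The median exon length was 6374 bases for the genes that rose and 2138 for those that fell, against 4471 for all. Ribosomal protein genes (median 1924 bases) and macrophage genes (2967 bases) are shorter than most. So are respiratory chain genes (1831 bases), whose median log2 fold change was -0.038. When a trend on exon length was removed within each library, a fit added after these values were seen, 51 genes passed (38 higher, 13 lower), all of them among the 230. All 230 then kept their direction and an unadjusted p below 0.05, with 1.03 times the log2 fold change at the median for rises and 0.875 times for falls. As these genes were chosen by their p-value in the same mice, this does not tell diet and gene length apart. The median of the ribosomal list became -0.12, that of the macrophage list -0.42 with 0 calls, and that of the foam cell list -0.68 with 4 lower. Whether the length trend belongs to the tissue or to the libraries was not tested.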

How the data were processed

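The adrenal cortex of 8 mice, 4 per diet, was compared, with 1 total RNA library per mouse. Groups were taken from the diet in the labels, which give no batch or date. The values are counts per gene deposited by the authors, who trimmed the reads with cutadapt, aligned them with STAR to GRCm38 with GENCODE annotation, and counted them by strand with HTSeq 0.6.1p1 (minimum quality 20). The files hold 49585 genes, and gene names, positions, and exon lengths were taken from a GENCODE annotation of GRCm38. Total counts were 43819152 to 51563705 per library.

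Genes were filtered with filterByExpr (minimum count 10), which left 15909, and tested with the quasi-likelihood test of edgeR 4.0.16 (TMM scaling, robust fit, two-sided, R 4.3.3). P-values were adjusted over all genes by the Benjamini-Hochberg method, with a threshold of 0.05. The chromaffin score is the mean log2 CPM (prior count 2) of 12 genes. These stayed in the fit that used the score and in its p-value adjustment, but no value was taken for them. The slope of a gene is the log2 difference per unit of the score. The scripts were tested on simulated data. The gene lists, score, and tests were chosen with earlier results of these data known. Genes named are the 15 largest rises and 15 largest falls past the threshold that had at least 1 CPM in either diet, were outside the lipid list, and did not overlap between the diets, all chromaffin genes, up to 4 members of each other list by adjusted p or else by level, the genes with the largest slopes, and the 6 that moved most when the score was added. *Csf1r*, *Mrc1*, *Adgre1*, *Mki67*, *Ccnb1*, *Adipoq*, *Lep*, *Cd9*, and *Fads2* were added after their values were seen. The alternatives were DESeq2 1.42.0, other scalings and filters, all 12 mice in 1 fit, other covariates, leaving out each mouse, and, added after the data were seen, removal of a gene length trend. Results of 2 genes are not reported here. Promoters are from RefSeq and cover 11656 of the tested genes.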

Additional observations from a re-analysis of the deposited data

Results flagged for a closer look

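In 328 groups of 4 mice, 1 group per diet and named gene or summed list, 14 had a single mouse farther from the others than Dixon's 95% critical value allows, where chance gives about 1 in 20. Of these mice, 5 were HFD replicate 1 and 3 were LFD replicate 5. HFD replicate 1 was the lowest of its group in *Apol6* (3.11 CPM, against 5.50 to 5.68), in *Slc6a6* (471 CPM, against 737 to 766), in *Hsd3b1* (14830 CPM), in *Fkbp4*, a chaperone of steroid receptors (389 CPM), and in *Sparc*, a matrix protein (2539 CPM). LFD replicate 5 was the highest of its group in *Cd44* (29.3 CPM, against 22.8 to 23.9) and in *Mmp19* (63.2 CPM, against 46.3 to 48.8), and the lowest in *Rps3* (1492 CPM). *Apol6*, *Slc6a6*, *Cd44*, and *Mmp19* passed the diet test with these mice closest to the other diet. LFD replicate 7 was the lowest LFD mouse in *Slc6a2* (20.5 CPM, against 62.7 to 66.8) and in the myelin gene *Mbp* (13.6 CPM). LFD replicate 2 was the lowest in *Ccnd1* (301 CPM). Among the HFD mice, replicate 2 was the highest in *Mal* (28.1 CPM), replicate 3 in *C1qc* (63.8 CPM), and replicate 4 in *Dhx58*, a sensor of viral RNA (104 CPM). The number of such groups was no larger than the share that chance gives.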

How the results depend on the processing

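The 230 diet genes became 2019 (1012 higher, 1007 lower) by DESeq2, 84 (40 higher, 44 lower) with library totals, 556 (316 higher, 240 lower) with all 12 mice in 1 fit, 51 (38 higher, 13 lower) with the length trend removed, 1884 (732 higher, 1152 lower) with an adipocyte score, and 0 with the chromaffin score (1403 at an unadjusted p below 0.05 by edgeR, 156 by DESeq2). They were 179 with the median-ratio scaling, 271 without a filter, and 256 with 10 counts in every mouse, of which 178, 198, and 228 were among the 230. Leaving out 1 mouse gave 0 to 918 genes. All 230 were among the 918 without HFD replicate 1, and 51 were among the 78 without LFD replicate 2. With the chromaffin score, edgeR called 0 in every other setting run except 1 without LFD replicate 2, a range of 0 to 1, while 252 to 1853 genes had an unadjusted p below 0.05, the fewest without LFD replicate 7. The 649 genes that followed the score became 120 with *Th*, *Dbh*, and *Pnmt* alone and 244 to 649 when 1 mouse was left out, with 297 without HFD replicate 1 and 244 without LFD replicate 7. In the other settings they were 593 to 863. With the chromaffin score, 8 named genes that were lower in HFD mice turned above 0 in log2 fold change: *Dlk1* (0.040), *L1cam* (0.052), *Thsd7b* (0.44), *Lrrtm4* (0.38), *Mab21l1* (1.15), *St8sia1* (0.12), *Panx2* (0.18), and *Nyap2* (0.40). None of the 56 named genes past the threshold changed sign without any 1 mouse, but each lost its call in 6 or 7 of the 8 fits. The cause of these changes was not tested. No paired analysis was possible because the LFD and HFD mice share 1 replicate number, and nothing in the labels ties mice of the 2 diets together.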

Other observations

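On the score computed over all 12 mice, the mice on the HFD with icosapent ethyl were between 6.58 and 7.70 log2 CPM. The HFD mice were between 5.98 and 7.64, and the LFD mice between 6.90 and 8.67. The 3 groups thus overlapped in chromaffin RNA.

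The fraction of counts on mitochondrial genes was from 1.97% to 2.64% in LFD and from 1.84% to 3.23% in HFD mice. Of 8 mesothelial genes tested, 7 had a log2 fold change below 0 (median -0.57), and the median was 0.12 with the chromaffin score. Without LFD replicate 2 it was -0.13, with 4 genes above and 4 below 0. By edgeR 0 passed, 3 had an unadjusted p below 0.05, and DESeq2 called 3. Of 9 granulocyte and mast cell genes tested, 5 were above and 4 below 0, with 0 at an unadjusted p below 0.05 by edgeR and 0 called by DESeq2. Among 39 splicing genes, 26 were above 0 (median 0.06), 0 passed by edgeR with 8 at an unadjusted p below 0.05, against 24.8% of all genes, and DESeq2 called 3.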
